A study of Mus musculus with 2 samples.

Results

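The Zfp genes are mouse genes named for a zinc finger protein and a number. Of the 55468 genes in the deposited table, 409 carried such a symbol, and 274 of these reached 1 FPKM, a fragment count scaled for transcript length and library size, in at least 1 library. These 274 are the members described here, selected on that level and with no regard to direction, all of them marked by the authors' table as tested, and 273 are annotated as protein-coding. The exception, Zfp125, is an annotated pseudogene and is named because it stands alone in this. RNA was sequenced from KPC2 cells, a pancreatic cancer line of the mouse. Resistant cells had been treated over the long term with 260 ng/mL gemcitabine, a deoxycytidine analogue that blocks DNA synthesis, and were kept in that dose. Wild type cells received no treatment. Each group had 1 library, so no difference below has a replicate check and none was tested. As gemcitabine was present for the resistant cells alone, the drug's presence and a lasting resistant state cannot be told apart, and the labels give neither the number of clones nor the passage of either group.

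Most Zfp genes encode proteins with tandem C2H2 zinc fingers, each finger reading a short stretch of DNA. The largest class joins the fingers to a KRAB box, which binds KAP1 (the product of Trim28). KAP1 brings in histone methylation and heterochromatin proteins, and KRAB zinc finger proteins are best known for silencing transposons and for keeping the DNA methylation of imprinted genes. Their genes lie in tandem clusters that grew by duplication, so neighbours are often similar in sequence.

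Levels of the Zfp genes were lower in the resistant than in the wild type library for most members. The median member had 2.02 FPKM in the resistant library and 3.65 FPKM in the wild type library, and the sum over all 274 members was 1388 FPKM in the resistant and 1865 FPKM in the wild type library. Differences were measured as a log2 ratio of resistant over wild type after adding 1 FPKM to each value, which understates differences of low genes, and a ratio of at least 1 in size is called at least 2-fold. On that scale 65 members were at least 2-fold lower in resistant cells, 7 were at least 2-fold higher and 202 lay between. Those counts are 23.7% and 2.55% of the members. Among all 12207 genes measured by the same rule, 8.38% were at least 2-fold lower and 7.91% at least 2-fold higher, and among the protein-coding ones 8.02% and 7.28%. The median log2 ratio of the members was -0.64 (quartiles -0.98 and -0.18, range -1.93 to 3.33), against 0.02 for all measured genes, and 83.2% of the members were below 0, against 49.3% of all measured genes. In bulk RNA, fewer cells expressing a gene and less RNA per cell cannot be told apart.

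The level of 1 FPKM itself fixes part of these counts, since a member that passed it in the wild type library alone had to be lower in the resistant one. That was so for 85 members (31.0%), against 6.25% of all measured genes, and 7 members (2.55%) passed in the resistant library alone, against 5.03%. Those 7 were Zfp979, Zfp985, Zfp978, Zfp993, Zfp422, Zfp37 and Zfp692, of which Zfp37 and Zfp692 are named for this reason only. Among the 182 members at 1 FPKM or more in both libraries, 28 (15.4%) were at least 2-fold lower, 3 were at least 2-fold higher and the median log2 ratio was -0.41. For all 10830 genes at that level in both libraries, 6.37% were at least 2-fold lower, 5.96% were at least 2-fold higher and the median was 0.02. The members just inside the level were Zfp456 (0.0716 FPKM in the resistant and 1.02 FPKM in the wild type library), Zfp59 (0.197 FPKM in the resistant and 1.02 FPKM in the wild type library) and Zfp39 (0.335 FPKM in the resistant and 1.06 FPKM in the wild type library). Just outside it were Zfp607a (0.280 FPKM in the resistant and 0.973 FPKM in the wild type library), Zfp799 (0.740 FPKM in the resistant and 0.971 FPKM in the wild type library) and Zfp763 (0.413 FPKM in the resistant and 0.936 FPKM in the wild type library). Of the 135 Zfp genes below the level, 44 were listed at 0 in both libraries. The other 91 summed to 18.8 FPKM in the resistant and 29.8 FPKM in the wild type library, and 61 of them were higher in the wild type library.

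**Figure D1:**
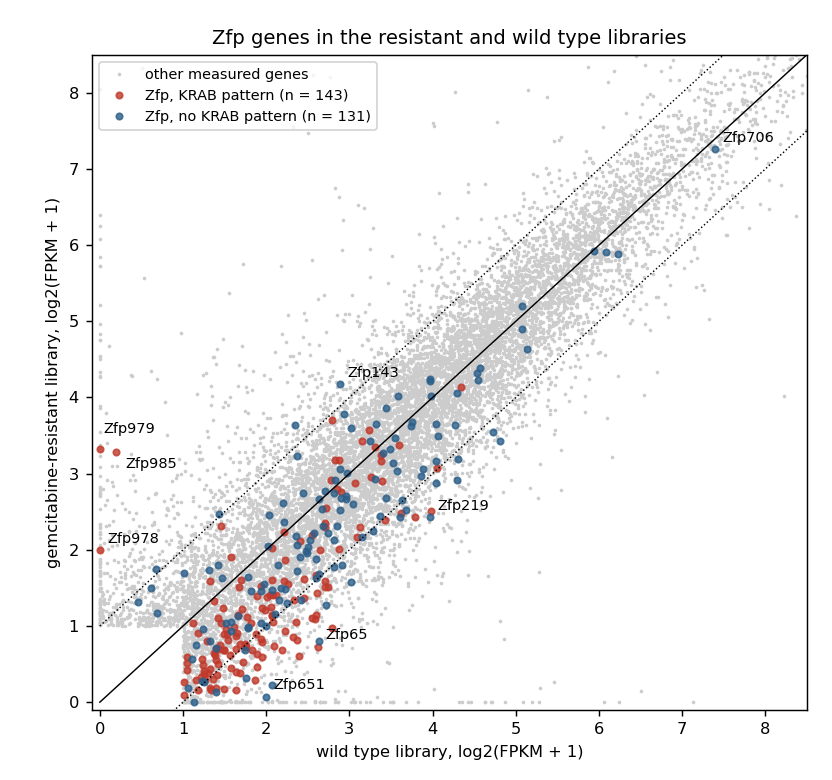
Level of each measured gene in the gemcitabine-resistant library (vertical axis) and the wild type library (horizontal axis), both as log2(FPKM + 1), with members carrying a KRAB pattern in red, other members in blue and all other measured genes in grey. The solid line marks equal levels and the dotted lines a 2-fold difference; genes beyond 8.5 on either axis are not drawn. Most members lie below the solid line, at low levels, while Zfp979, Zfp985 and Zfp978 lie at the left edge, near or at 0 in the wild type library.

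Zfp genes are expressed at low levels. The median of the members' mean FPKM over the libraries was 2.93, against 10.6 for all measured genes. Under a mean of 2 FPKM, 17 of 99 members passed the level in both libraries, so the values of most others there had to differ, and the 29.3% at least 2-fold lower is given without a reading. Between 2 and 5 FPKM, the 77 members that passed in both libraries had 19.5% at least 2-fold lower and a median log2 ratio of -0.64, against 8.5% and -0.13 for all genes of that level that passed in both. Between 5 and 15 FPKM, where all 72 members passed in both, 15.3% were at least 2-fold lower and the median was -0.22, against 9.20% and -0.05. Above 15 FPKM only 16 members remained, of which 2 were at least 2-fold lower, and their median was -0.19, against 0.12 for all genes there that passed in both. These ranges were chosen after the values were seen. After all measured genes were split into 10 bins of mean FPKM and the median of each bin was subtracted, the members' median was -0.51. It was -0.63 after the same step by GC content and -0.60 by transcript length.

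The deposited values name no unit or depth. Low values of genes with 1 transcript fell on whole multiples of a step, from which 1 FPKM on a transcript of 2000 bases stands for about 41.9 fragments in the resistant and 43.3 in the wild type library, with a 95% Poisson interval of 0.72 to 1.35 FPKM. Such intervals cover counting error only. Overlap is a further limit, as 120 members share their deposited locus with another gene and 57 have a near-identical copy among other annotated transcripts. Fragments could be worked out in this way for 25 members with a single annotated transcript. Zfp213, for example, had about 10 fragments in the resistant library (0.0834 to 0.320 FPKM) and 190 in the wild type library (2.75 to 3.68 FPKM). Of the epithelial markers, Krt8, Krt18 and Krt19 were at 1722 to 1864 FPKM in the resistant and 1123 to 1332 FPKM in the wild type library. Cdh1 was at 164 FPKM in the resistant and 206 FPKM in the wild type library. Epcam, also an epithelial marker, was near 0, with 0.103 FPKM in the resistant and 0.211 FPKM in the wild type library. No fibroblast, endothelial or islet marker was measured in either library, and the acinar list had 1 of 4, Cela1, with 1.48 FPKM in the resistant and 4.38 FPKM in the wild type library (-1.12). Cpa1 and Amy2a5 of that list were listed at 0 in both, and its sum was 1.55 FPKM in the resistant and 4.38 FPKM in the wild type library. Of 6 leukocyte markers, Cd68 was at 5.48 FPKM in the resistant and 1.17 FPKM in the wild type library and Lyz2 at 1.53 FPKM in the resistant and 0.361 FPKM in the wild type library. The list summed to 7.27 FPKM in the resistant and 1.58 FPKM in the wild type library, Ptprc was at 0.232 FPKM in the resistant library and listed at 0 for the wild type one, and Cd3e was listed at 0 in both. The part of these cells in the results was not tested.

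By protein, members with a KRAB pattern stood lowest among classes of more than 1 gene. Proteins translated from the annotated coding sequences placed 143 members in the class with a KRAB box and at least 3 C2H2 fingers, 105 in the class with at least 3 C2H2 fingers and no KRAB or SCAN pattern, 3 in the CCCH class, 1 (Zfp397, the only member with a SCAN pattern) in another, and 21 in none of these. The KRAB class had a median of 1.13 FPKM in the resistant and 2.71 FPKM in the wild type library. In it 43 members (30.1%) were at least 2-fold lower, 3 at least 2-fold higher and 129 (90.2%) below 0, with a median log2 ratio of -0.78. The C2H2 class without KRAB had a median of 3.38 FPKM in the resistant and 5.07 FPKM in the wild type library. There 18 members (17.1%) were at least 2-fold lower and 4 at least 2-fold higher, with a median log2 ratio of -0.49. Members with none of the patterns had a median log2 ratio of -0.34, and 3 of 21 were at least 2-fold lower. With at least 5 FPKM in 1 library, the medians of the KRAB class and the C2H2 class without KRAB were close, at -0.38 and -0.34. The KRAB class was also the lower in level, so class and level move together, and their parts in the difference were not tested.

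By number of fingers the median log2 ratio fell step by step, but the share at least 2-fold lower did not. Medians of the log2 ratio were -0.08 for 24 members with up to 2 fingers, -0.25 for 36 members with 3 to 5, -0.68 for 64 with 6 to 9, -0.71 for 95 with 10 to 14 and -0.75 for 54 with 15 to 36. In that order, 12.5%, 16.7%, 31.2%, 22.1% and 25.9% were at least 2-fold lower. The median of the mean FPKM fell from 9.92 with up to 2 fingers to 2.15 with 15 to 36. Finger number and level thus move together, and their parts were not tested. Long arrays were not all lower. Zfp462, whose product has 33 fingers by the pattern, had 4.16 FPKM in the resistant and 3.63 FPKM in the wild type library. Zfp729b, with 30 fingers, had 0.674 FPKM in the resistant and 3.25 FPKM in the wild type library.

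**Figure D2:**
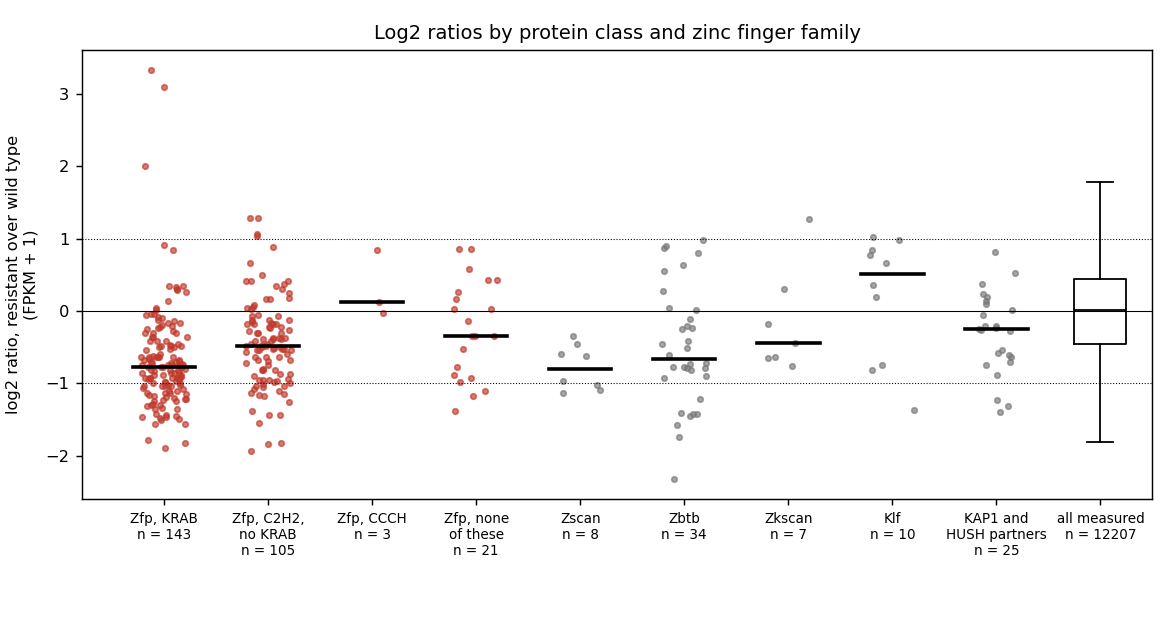
Log2 ratio of resistant over wild type (FPKM + 1) for each measured gene by protein class of the Zfp members (red) and by other lists (grey), with black bars at the medians; the box for all 12207 measured genes shows the quartiles and median, its whiskers reach the last value within 1.5 box lengths, and values beyond them are not drawn. The KRAB class has the lowest median of the Zfp classes drawn at -0.78, the CCCH genes lie around 0, and the Klf genes have a median above 0.

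The CCCH class holds the tristetraprolin family, whose products bind AU-rich elements and promote mRNA decay, and which share only the name with the DNA-binding members. Zfp36, which encodes tristetraprolin, had 12.7 FPKM in the resistant and 6.66 FPKM in the wild type library, a log2 ratio of 0.84. Zfp36l1 had 35.6 FPKM in the resistant and 32.6 FPKM in the wild type library. Zfp36l2 had 59.4 FPKM in the resistant and 60.4 FPKM in the wild type library. None of the 3 reached 2-fold, and Zfp36l1 and Zfp36l2 differed little between the libraries.

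Members lay on 20 chromosomes, and the median log2 ratio was below 0 on each of them except X, whose 3 members had a median of 0.03. Among all measured genes 8.38% were at least 2-fold lower and 7.91% at least 2-fold higher. Chromosome 13 stood low with 14 of 29 members at least 2-fold lower and a median of -0.94. Of these 29, 18 lie in the interval described below, which was chosen with its low values known. The median resistant level of the 29 was 0.861 FPKM, so most passed 1 FPKM in the wild type library alone and had to be lower. Chromosome 17 had 13 of 38 and a median of -0.80, and chromosome 7, which holds the most members, had 10 of 61 and a median of -0.60. On chromosome 4, 3 of 16 were at least 2-fold lower, 3 were at least 2-fold higher and the median was -0.10.

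Zfp genes whose neighbouring starts lie within 500 kb of each other were joined into clusters, and 15 clusters held at least 4 measured members, 125 in all. The median was below 0 in 14 clusters and above 0 in 1, on chromosome 4. Members in clusters had a median log2 ratio of -0.73, with 33 (26.4%) at least 2-fold lower, against -0.53 and 32 (21.5%) for the 149 members outside every cluster. For KRAB members alone the medians were -0.82 for 90 members in clusters and -0.74 for 53 outside. Among all measured genes 8.38% were at least 2-fold lower. Both sets include members that passed 1 FPKM in the wild type library alone and so had to be lower. That held for 85 of all 274 members (31.0%), against 6.25% of all measured genes. Low values were found inside and outside the clusters, but these medians and counts partly follow from the level.

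**Figure D3:**
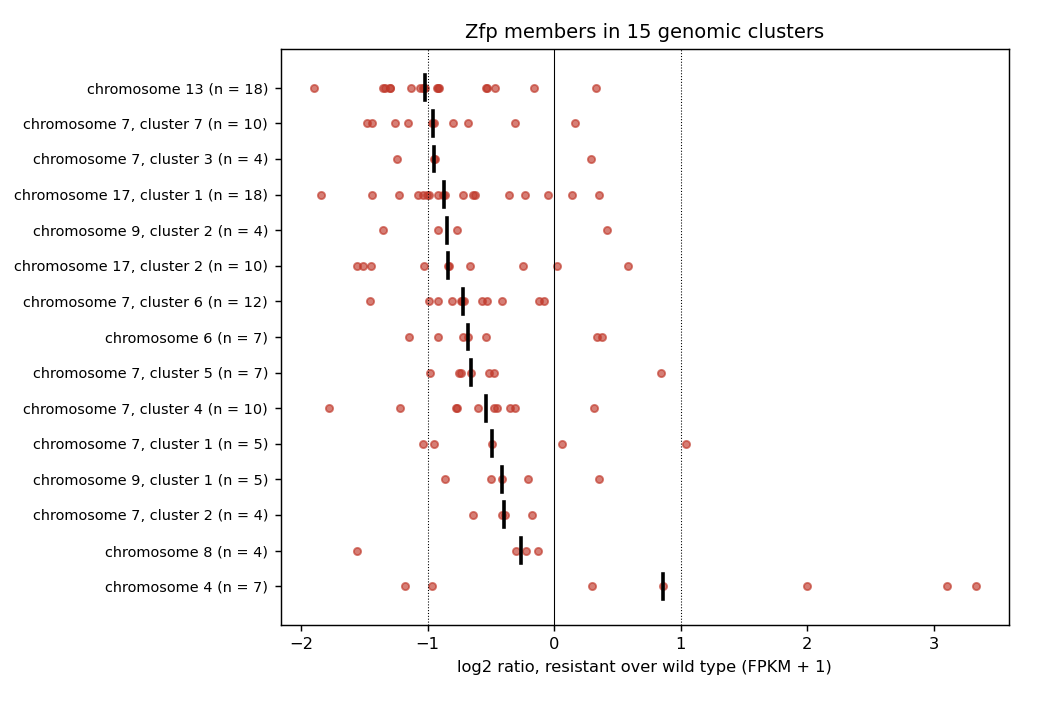
Log2 ratio of resistant over wild type (FPKM + 1) for each measured Zfp member in the 15 clusters, with black bars at the medians and dotted lines at a 2-fold difference; clusters of 1 chromosome are numbered in order of position. The chromosome 13 cluster is at the top with a median of -1.02 over 18 members, and the chromosome 4 cluster at the bottom is the only one with a median above 0, at 0.86.

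The chromosome 13 cluster spans bases 66669928 to 67830985 of the mouse build GRCm38. Its measured members all lie in the interval between Zfp708 and Fastkd3, which was chosen with its low values known, so its standing is a description. The interval holds 24 Zfp genes, of which 18 were measured, 17 of them with a KRAB pattern. In the resistant library they ran from 0.0716 to 2.76 FPKM with a median of 0.652, and 12 were under 1 FPKM. In the wild type library they ran from 1.02 to 5.18 FPKM with a median of 2.08, so all 18 passed the level there. Summed over the 18 the level was 15.2 FPKM in the resistant and 43.5 FPKM in the wild type library. The median log2 ratio was -1.02, with 10 members at least 2-fold lower and none higher, against -0.63 and 55 of 256 for the members elsewhere. The 12 under 1 FPKM passed the level in the wild type library alone, so they had to be lower in the resistant one. All of the 10 except Zfp748 were among these 12. Of all 274 members, 85 passed in that way, so the comparison partly follows from the level.

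Zfp65 had the largest difference of the interval, with 0.659 FPKM in the resistant and 5.18 FPKM in the wild type library (log2 ratio -1.90). Zfp874b had 0.508 FPKM in the resistant and 2.85 FPKM in the wild type library (-1.35). Zfp729b had 0.674 FPKM in the resistant and 3.25 FPKM in the wild type library (-1.34). All 3 were under 1 FPKM in the resistant library and well above it in the wild type one. Zfp748 had 1.08 FPKM in the resistant and 4.13 FPKM in the wild type library (-1.30). Zfp729a had 0.299 FPKM in the resistant and 2.21 FPKM in the wild type library (-1.30). Zfp759 had 0.363 FPKM in the resistant and 1.99 FPKM in the wild type library (-1.13). The other 4 members at least 2-fold lower were all under 1 FPKM in the resistant library. Zfp953 had 0.238 FPKM in the resistant and 1.57 FPKM in the wild type library, about 25 and 168 fragments. Zfp273 had 0.285 FPKM in the resistant and 1.65 FPKM in the wild type library, and Zfp58 had 0.645 FPKM in the resistant and 2.35 FPKM in the wild type library. Zfp458 had 0.120 FPKM in the resistant and 1.27 FPKM in the wild type library, a log2 ratio of -1.02.

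The other 8 members stayed within 2-fold on this scale, and 7 of them were still below 0. Zfp874a had 1.20 FPKM in the resistant and 3.20 FPKM in the wild type library (-0.93). Zfp456 (-0.92) and Zfp85 (-0.91) were just short of the line, Zfp85 with 0.420 FPKM in the resistant and 1.67 FPKM in the wild type library. Zfp493 had a log2 ratio of -0.54, Zfp595 -0.53 and Zfp87 -0.47. The smallest differences were found for genes lying between lower ones. Zfp429 had 1.84 FPKM in the resistant and 2.18 FPKM in the wild type library. Zfp738 was the single member above 0, with 2.76 FPKM in the resistant and 1.99 FPKM in the wild type library (0.33), although it lies between Zfp729a and Zfp65. The authors' loci are shared between neighbours for 14 of the 18, and 11 have a stretch of at least 500 bases that is at least 90% identical to another annotated transcript, so fragments could be split among them. Their proteins were identical at a median of 42.2% of positions over 153 pairs, with a range of 20.3% to 92.9%.

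Genes of other names in the interval were few. Of 5 measured, Fastkd3, which encodes a mitochondrial RNA-binding protein and lies at the far end of the interval from base 68582234, was at least 2-fold lower, with 4.04 FPKM in the resistant and 9.79 FPKM in the wild type library. Mtrr beside it, which encodes methionine synthase reductase, had 7.68 FPKM in the resistant and 8.41 FPKM in the wild type library. Rsl1, a KRAB zinc finger gene of another name that regulates sex-limited liver genes in mice, had 0.655 FPKM in the resistant and 2.26 FPKM in the wild type library. The remaining genes were higher in the resistant library, Gm28557 with 1.23 against 0.954 FPKM and Gm9625, a processed pseudogene, with 7.76 against 5.42 FPKM. Over the span of the chromosome 13 cluster, 7 measured genes of other names had a median log2 ratio of 0.15, with none at least 2-fold lower. Of the 6 Zfp genes in the interval below the level, Zfp708, whose product is known to bind transposons in the mouse, had 0.00136 FPKM in the resistant and 0.708 FPKM in the wild type library. Zfp712 next to it had 0.633 FPKM in the resistant and 0.525 FPKM in the wild type library. In the deposited table their locus is shared with each other and with Gm28557, which covers all of Zfp708 on the same strand. How fragments were split between Gm28557 and Zfp708 is not known, so the low Zfp708 value is uncertain. These genes of other names, and Zfp712, were named for their position after their values were seen.

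**Figure D4:**
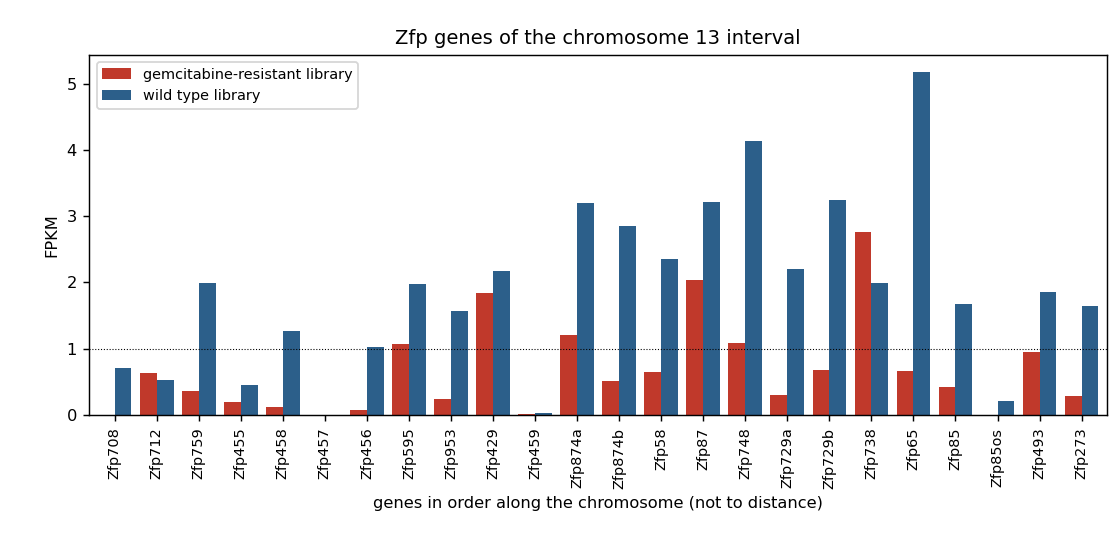
FPKM of each Zfp gene of the chromosome 13 interval in the gemcitabine-resistant library (red, left bar) and the wild type library (blue, right bar), in order along the chromosome; the dotted line marks 1 FPKM. Zfp65 has 0.659 FPKM in the resistant and 5.18 FPKM in the wild type library, and Zfp738 is the one gene above the dotted line whose resistant bar is the taller.

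The chromosome 4 cluster, from base 145510759 to 147848366, differed in the other direction and had few measured members. Of its 18 Zfp genes 7 were measured, 6 with a KRAB pattern, with a summed level of 30.7 FPKM in the resistant and 9.78 FPKM in the wild type library. Zfp979 had 9.03 FPKM in the resistant library, against a listed 0 in the wild type library. Zfp985 had 8.78 FPKM in the resistant and 0.144 FPKM in the wild type library. Zfp978 had 2.99 FPKM in the resistant library, against a listed 0 in the wild type library. These 3 nearby genes had the highest log2 ratios of all 274 members, with no fold given against a value of 0. Zfp993 had 1.49 FPKM in the resistant and 0.375 FPKM in the wild type library, and Zfp984 had 8.03 FPKM in the resistant and 6.34 FPKM in the wild type library. Zfp991 was lower, with 0.114 FPKM in the resistant and 1.52 FPKM in the wild type library (-1.18), as was Zfp933, with 0.222 FPKM in the resistant and 1.40 FPKM in the wild type library. The cluster median of 0.86 thus stands for genes of both directions. Zfp993, Zfp984 and Zfp933 lie outside the naming rule and were named after their values were seen.

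Below the level, the chromosome 4 genes leaned the same way. Of the 11 unmeasured Zfp genes, 8 were higher in the resistant library, 1 in the wild type library and 2 were listed at 0 in both, with no resistant value above 0.862 FPKM. Over all 18 genes, 9 were above 0 in the resistant library and listed at 0 in the wild type library. Gm13147, an unprocessed pseudogene in the same stretch that is not one of the Zfp genes, had 5.01 FPKM in the resistant and 0.0412 FPKM in the wild type library. It was named after its values were seen. All measured members but Zfp933 have a near-identical copy, as Zfp979 does with Zfp978 (93.4% over 1114 bases) and Zfp991 with Zfp992 (99.3% over 2491 bases). How fragments were shared among such copies was not given in the sources used here, so the level of any single gene of the cluster is uncertain. Without genes that have such copies the cluster median rests on Zfp933 alone, at -0.97.

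**Figure D5:**
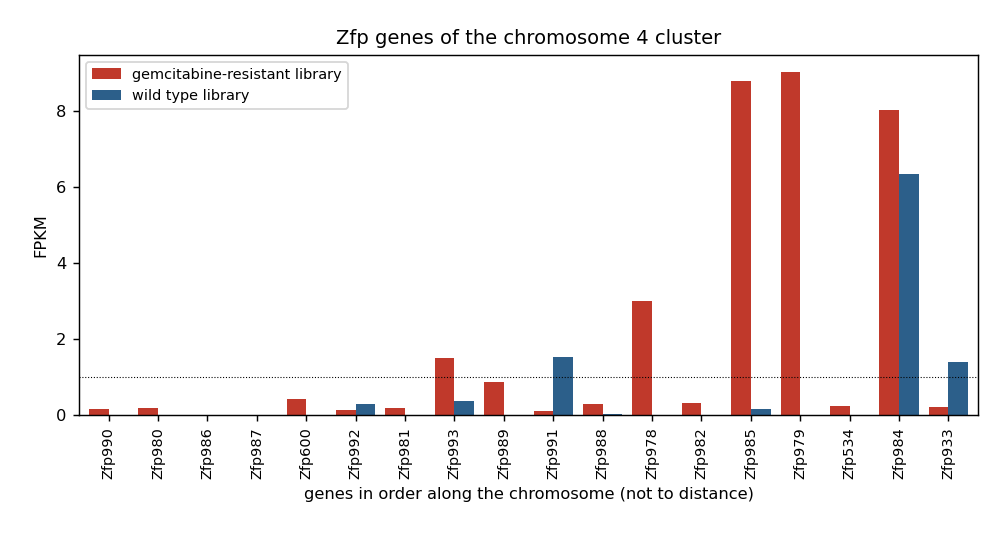
FPKM of each Zfp gene of the chromosome 4 cluster in the gemcitabine-resistant library (red, left bar) and the wild type library (blue, right bar), in order along the chromosome; the dotted line marks 1 FPKM. Zfp985, Zfp979 and Zfp978 have 8.78, 9.03 and 2.99 FPKM in the resistant library and almost no bar in the wild type library, while Zfp984 is high in both.

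Promoters are printed for Zfp979 and Zfp985, which had the highest log2 ratios of all members, and for Zfp65 and Zfp748, which had the highest wild type levels of the chromosome 13 interval, a choice made after the values were seen. Each sequence runs in the direction of transcription from 250 bases before to 50 bases after the RefSeq start, on GRCm38.p6, and capitals mark every CG dinucleotide. Zfp979 (ENSMUSG00000066000) is at chr4:147642459-147642758 on the minus strand and Zfp985 (ENSMUSG00000065999) at chr4:147553027-147553326 on the plus strand. Zfp65 (ENSMUSG00000071281) is at chr13:67729124-67729423 and Zfp748 (ENSMUSG00000095432) at chr13:67553103-67553402, both on the minus strand.
Zfp979: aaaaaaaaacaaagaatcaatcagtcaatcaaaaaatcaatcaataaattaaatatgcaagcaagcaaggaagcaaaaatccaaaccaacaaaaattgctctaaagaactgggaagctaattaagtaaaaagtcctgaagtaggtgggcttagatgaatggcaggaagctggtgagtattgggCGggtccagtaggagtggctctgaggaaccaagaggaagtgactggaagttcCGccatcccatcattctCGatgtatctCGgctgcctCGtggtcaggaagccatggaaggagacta
Zfp985: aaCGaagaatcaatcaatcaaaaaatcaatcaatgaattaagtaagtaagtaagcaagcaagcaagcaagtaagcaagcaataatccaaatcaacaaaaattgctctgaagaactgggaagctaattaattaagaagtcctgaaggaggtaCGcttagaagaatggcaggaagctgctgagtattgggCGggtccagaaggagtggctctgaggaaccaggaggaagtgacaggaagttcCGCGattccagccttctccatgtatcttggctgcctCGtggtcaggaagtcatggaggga
Zfp65: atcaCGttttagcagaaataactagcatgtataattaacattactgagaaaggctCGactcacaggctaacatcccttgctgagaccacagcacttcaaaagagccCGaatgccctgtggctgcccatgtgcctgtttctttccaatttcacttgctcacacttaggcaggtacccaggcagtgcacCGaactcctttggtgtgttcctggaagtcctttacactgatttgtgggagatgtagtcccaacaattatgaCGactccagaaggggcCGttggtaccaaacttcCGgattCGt
Zfp748: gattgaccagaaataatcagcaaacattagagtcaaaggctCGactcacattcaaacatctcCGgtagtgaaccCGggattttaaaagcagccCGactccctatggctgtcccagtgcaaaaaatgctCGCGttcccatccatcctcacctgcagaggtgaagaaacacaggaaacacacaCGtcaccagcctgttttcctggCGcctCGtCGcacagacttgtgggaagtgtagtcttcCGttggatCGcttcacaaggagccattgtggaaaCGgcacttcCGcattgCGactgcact

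The chromosome 4 promoters were 82.3% identical over their alignment, with 5 CG in Zfp979 and 6 in Zfp985. The chromosome 13 promoters were 61.7% identical, with 8 CG in Zfp65 and 15 in Zfp748. Across the clusters, identity was 48.4% to 50.1%. Letters of 6 motifs were searched on both strands, none of which contains another. They were CCAAT, the box bound by NF-Y, GGGCGG, the box bound by SP1, CCGGAAG, the core bound by ETS factors, GCATGCG, the core bound by NRF1, TCGCGA, a core found in promoters rich in CG, and ATGGCGG, the core bound by YY1. The Zfp979 window held the NF-Y, SP1 and YY1 letters, the Zfp985 window the NF-Y and SP1 letters, the Zfp65 window the NF-Y and ETS letters, and the Zfp748 window none. A match is a description of letters, not a site.

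A promoter was found for 226 members. Their median CG count was 15, against 7 for all 32851 promoters of the same length in the table. It was 11 for 55 members at least 2-fold lower, 18.5 for 6 at least 2-fold higher and 16 for 165 in between. KRAB members had a median of 10, the 15 of the chromosome 13 cluster 8 and the 5 of the chromosome 4 cluster 6. Of these 5, the window taken for Zfp993 starts at base 146512599, outside the annotated gene, which starts at base 146610961. The chromosome 4 median is therefore uncertain. The medians of both clusters were below that of all members. CCGGAAG was found in 22.1% of the members' promoters and 8.86% of all promoters, in 20% of those at least 2-fold lower and in 23.6% of those in between. CCAAT stood in 47.8% of the members' and 37.4% of all promoters, and GGGCGG in 45.1% of the members' and 35.7% of all promoters. ATGGCGG stood in 10.6% of the members' and 4.05% of all promoters, GCATGCG in 7.08% of the members' and 3.58% of all, and TCGCGA in 6.19% of the members' and 2.50% of all. All 6 were found in a larger share of the members' promoters than of all promoters, which also hold fewer CG. The sets are unlike, since members were chosen for a level of 1 FPKM in a library and all promoters were not. Whether other expressed genes have the same shares was not tested.

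Chromosome 17 holds 2 clusters. From base 21008903 to 23599487, 18 members had a median log2 ratio of -0.87, with 6 at least 2-fold lower and a summed level of 53.9 FPKM in the resistant and 84.8 FPKM in the wild type library. Zfp213 was the lowest of them, with 0.170 FPKM in the resistant and 3.20 FPKM in the wild type library (-1.84), followed by Zfp943 with 1.15 FPKM in the resistant and 4.85 FPKM in the wild type library (-1.44). Zfp820, Zfp54, Zfp160 and Zfp13 had log2 ratios of -1.23, -1.08, -1.04 and -1.01. The most strongly expressed members of that cluster did not reach 2-fold, and 2 of 18 were above 0. From base 32765496 to 33645706, 10 members had a median of -0.84 and 4 were at least 2-fold lower. Zfp563 had 0.226 FPKM in the resistant and 2.63 FPKM in the wild type library (-1.56), and Zfp871 had 4.25 FPKM in the resistant and 9.72 FPKM in the wild type library (-1.03). Zfp955b had 0.612 FPKM in the resistant and 3.58 FPKM in the wild type library (-1.51). Zfp955a had 1.22 FPKM in the resistant and 5.08 FPKM in the wild type library (-1.45). Zfp955a and Zfp955b are 98.4% identical over 2185 bases and cannot be held apart with confidence, although both were lower.

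Chromosome 7 holds 7 clusters. The most distal, from base 127214447 to 127895617, had a median of -0.96 over 10 members and, unlike most of the others, only 3 with a KRAB pattern. In it Zfp646, which encodes a long array of fingers, had 1.98 FPKM in the resistant and 7.10 FPKM in the wild type library (-1.44). Zfp764 had 0.115 FPKM in the resistant and 2.11 FPKM in the wild type library (-1.48). Zfp629 had a log2 ratio of -1.26 and Zfp747 of -1.16, and 17 measured genes of other names in that interval had a median of -0.25 with 1 at least 2-fold lower. Elsewhere on the chromosome Zfp111 had 0.528 FPKM in the resistant and 4.25 FPKM in the wild type library (-1.78). Zfp84 had 0.806 FPKM in the resistant and 3.98 FPKM in the wild type library (-1.46), about 73 and 371 fragments. Zfp324, Zfp94 and Zfp865 had log2 ratios of -1.24, -1.22 and -1.04. Zfp580, beside Zfp865 and sharing its locus, was higher, with 4.56 FPKM in the resistant and 1.70 FPKM in the wild type library (1.04). Single genes stood low in 3 further clusters. Zfp866 on chromosome 8 had 0.753 FPKM in the resistant and 4.16 FPKM in the wild type library, and Zfp777 on chromosome 6 had 4.57 FPKM in the resistant and 11.3 FPKM in the wild type library. On chromosome 9 it was Zfp809, described with the transposon silencers.

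Several members have a known part in silencing. Zfp809, which binds the primer binding site of murine leukaemia viruses and recruits KAP1 to silence them, had 4.41 FPKM in the resistant and 12.8 FPKM in the wild type library (-1.35). Zfp932, a repressor of endogenous retroviruses, had 4.86 FPKM in the resistant and 5.56 FPKM in the wild type library (-0.16). Zfp568, which represses a placental Igf2 transcript in the mouse embryo, had 2.19 FPKM in the resistant and 5.05 FPKM in the wild type library (-0.92). Only Zfp809 of these reached 2-fold. Zfp57 and Zfp445, which keep methylation at imprinted regions, differed in opposite directions. Zfp445 had 7.39 FPKM in the resistant and 15.6 FPKM in the wild type library (-0.98). Zfp57 had 12 FPKM in the resistant and 5.92 FPKM in the wild type library (0.91). Both lay just inside the 2-fold line, and 4 of these 5 genes were below 0, near the 83.2% of all members. Of 23 symbols of imprinted genes that these proteins act on, 10 were measured, with 3 at least 2-fold lower, none at least 2-fold higher, 5 above and 5 below 0 and a median log2 ratio of -0.38, beside 8.38% lower and 7.91% higher among all measured genes. Peg3, itself a zinc finger gene, was listed at 0 in the resistant library and had 4.52 FPKM in the wild type library. Impact had 1.99 FPKM in the resistant and 7.29 FPKM in the wild type library, and Mest had 0.113 FPKM in the resistant and 1.26 FPKM in the wild type library. Peg3, Mest and Peg13 (0.358 FPKM in the resistant and 1.52 FPKM in the wild type library) passed 1 FPKM in the wild type library alone. They had to be lower in the resistant one. Airn (1.02 FPKM in the resistant and 0.547 FPKM in the wild type library) passed in the resistant library alone and had to be higher there. The counts of imprinted genes thus partly follow from the level. The well expressed imprinted genes Gnas (431 FPKM in the resistant and 414 FPKM in the wild type library) and Igf2r (10.9 FPKM in the resistant and 9.21 FPKM in the wild type library) differed little.

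The partners through which KRAB proteins act were all measured. Trim28, which encodes KAP1, had 113 FPKM in the resistant and 177 FPKM in the wild type library (-0.64). Setdb1, which encodes the histone methyltransferase that KAP1 recruits, had 5.57 FPKM in the resistant and 9.73 FPKM in the wild type library (-0.71). Both were lower without reaching 2-fold, and Trim28 shares its deposited locus with Zbtb45. HUSH is a complex that spreads heterochromatin, and of 25 partners in KAP1 and HUSH silencing 3 (12%) were at least 2-fold lower, beside 8.38% of all measured genes. None was at least 2-fold higher, and the median log2 ratio was -0.25. Cbx5, which encodes the heterochromatin protein HP1 alpha, had 50.9 FPKM in the resistant and 129 FPKM in the wild type library. Uhrf1, which guides maintenance DNA methylation, had 38.8 FPKM in the resistant and 104 FPKM in the wild type library. Tasor, a HUSH subunit, had 2.47 FPKM in the resistant and 7.14 FPKM in the wild type library. Dnmt1, the maintenance methyltransferase gene, differed little, with 47.2 FPKM in the resistant and 42.6 FPKM in the wild type library, and Atf7ip, a partner of SETDB1, was highest in ratio, with 19.8 FPKM in the resistant and 10.8 FPKM in the wild type library (0.82).

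The 4 members at least 2-fold higher outside chromosome 4 all have C2H2 fingers without a KRAB pattern. Zfp143, which binds the promoters of many widely expressed genes, had 17.0 FPKM in the resistant and 6.38 FPKM in the wild type library (1.29). Zfp335, which works with histone methyltransferase complexes and whose human counterpart is mutated in microcephaly, had 11.4 FPKM in the resistant and 4.07 FPKM in the wild type library (1.29). Zfp422 had 2.35 FPKM in the resistant and 0.603 FPKM in the wild type library (1.06). With Zfp580 and the 3 genes of chromosome 4 these make up all 7 members at least 2-fold higher, and Zfp143, Zfp335 and Zfp580 share a deposited locus with another gene. Zfp593 (8.38 FPKM in the resistant and 4.16 FPKM in the wild type library), Zfp9 (3.96 FPKM in the resistant and 1.75 FPKM in the wild type library) and Zfp341 (2.23 FPKM in the resistant and 1.02 FPKM in the wild type library) were higher without reaching the line. Other regulators were lower, among them Zfp281, a regulator of pluripotency genes, with 2.49 FPKM in the resistant and 6.51 FPKM in the wild type library (-1.11). Zfp322a, another gene known from embryonic stem cells, had 4.76 FPKM in the resistant and 11.8 FPKM in the wild type library (-1.15). Zfp703, whose human counterpart is amplified in breast cancer, had 10.7 FPKM in the resistant and 25.4 FPKM in the wild type library (-1.18). Each of these was expressed well above 1 FPKM in both libraries. Zfp217, whose human counterpart is also amplified in breast cancer, had 3.68 FPKM in the resistant and 5.68 FPKM in the wild type library (-0.51).

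The lowest log2 ratio of all members belonged to Zfp651, on chromosome 9, with 0.0511 FPKM in the resistant and 3 FPKM in the wild type library (-1.93). Zfp512b had 0.751 FPKM in the resistant and 5.22 FPKM in the wild type library (-1.83). Zfp825, outside the interval on chromosome 13, had 0.955 FPKM in the resistant and 5.90 FPKM in the wild type library (-1.82). The last is the only 1 of the 3 with a KRAB pattern, so genes without one also stood at the low end, and Zfp651 and Zfp512b share a deposited locus with another gene. Zfp219 had 4.37 FPKM in the resistant and 14.7 FPKM in the wild type library (-1.55), and Zfp950 had 1.13 FPKM in the resistant and 4.99 FPKM in the wild type library (-1.49). No member was 4-fold lower on the log2(FPKM + 1) scale, a line passed by 1.06% of all measured and 0.738% of measured protein-coding genes. Genes of low wild type level cannot reach that line once 1 FPKM is added. The median wild type level was 3.65 FPKM for members and 10.4 FPKM for all measured genes. In plain FPKM, Zfp651 was 58.8-fold and Zfp213 18.7-fold lower. On the log2(FPKM + 1) scale 2 members, Zfp979 and Zfp985, were 4-fold higher, against 1.81% of all measured and 1.42% of measured protein-coding genes.

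The 8 members with the highest mean level all lay within 2-fold. Zfp706 was the most abundant, with 152 FPKM in the resistant and 167 FPKM in the wild type library. Zfp207, whose product helps chromosomes attach to the spindle, had 57.9 FPKM in the resistant and 74.2 FPKM in the wild type library. Zfp106, which encodes an RNA-binding protein needed by motor neurons, had 58.9 FPKM in the resistant and 66.9 FPKM in the wild type library. The others were Zfp36l1, Zfp36l2, Zfp637, Zfp91 and Zfp622. Zfp91, an E3 ubiquitin ligase gene, had the largest difference of them, with 23.8 FPKM in the resistant and 34.1 FPKM in the wild type library (-0.50). Zfp148 (18.9 FPKM in the resistant and 22.2 FPKM in the wild type library), Zfp516, a regulator of brown fat genes (9.75 FPKM in the resistant and 8.53 FPKM in the wild type library), and Zfp110, a partner of the neurotrophin receptor (9.81 FPKM in the resistant and 7.85 FPKM in the wild type library), also differed little. Zfp961 had 3.94 FPKM in the resistant and 7.72 FPKM in the wild type library (-0.82). Zfp42, the stem cell marker Rex1, and Zfp423, a gene of adipocyte precursors, were listed at 0 in both libraries, and Zfp521 was at 0.0131 FPKM in the resistant library and listed at 0 in the wild type one.

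Zinc finger families of other names were set beside the Zfp genes. Zbtb genes join C2H2 fingers to a BTB domain, but 2 of the 34 measured genes with this symbol, Zbtb11os1 and Zbtb8os, are named as opposite-strand neighbours of such genes. Of the other 32, 8 (25%) were at least 2-fold lower, none was at least 2-fold higher and the median log2 ratio was -0.67. Among all measured genes 8.38% were at least 2-fold lower and 7.91% at least 2-fold higher, which also stands beside the counts of the smaller families below. With at least 5 FPKM in 1 library, 21 genes with the Zbtb symbol had a median of -0.25. The lowest was Zbtb45, with 0.634 FPKM in the resistant and 7.17 FPKM in the wild type library (-2.32), and the highest Zbtb7b, with 58.0 FPKM in the resistant and 28.8 FPKM in the wild type library (0.98). All 8 measured Zscan genes were below 0, 3 of them at least 2-fold lower, with a median of -0.79. The 7 Zkscan genes had a median of -0.44, and Zkscan17 was at least 2-fold higher, with 27.1 FPKM in the resistant and 10.7 FPKM in the wild type library (1.27). The 10 measured Klf genes differed in the other direction, with a median of 0.51. Klf10 was at least 2-fold higher, with 21.2 FPKM in the resistant and 9.94 FPKM in the wild type library, and Klf4 at least 2-fold lower, with 20.1 FPKM in the resistant and 53.4 FPKM in the wild type library. Of the genes at least 2-fold lower, Zbtb45, Zbtb1, Zbtb26, Zbtb40 and Zscan30 passed 1 FPKM in the wild type library alone and had to be lower. The other Zbtb and Zscan genes at least 2-fold lower passed in both libraries. Medians below 0 were found in zinc finger families beside Zfp, but not in all of them, and they partly follow from the level. Differences between the families were not tested.

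The authors' deposited table, whose test rests on 1 library per side, called 56 genes significant, 0.404% of 13850 genes tested. Members among these in the authors' deposited table were Zfp979, with a q-value of 0.0169, and Zfp518a, with the same q-value. Zfp518a was listed at 0 in the resistant library and had 1.19 FPKM in the wild type library. Another Zfp gene called in the authors' deposited table, Zfp704, was listed at 0 in the resistant library and had 0.805 FPKM in the wild type library, below the level used here. The lowest q-value in the authors' deposited table among Zfp genes that it did not call was that of Zfp978, at 0.077. All 3 calls are of genes listed at 0 in 1 library, and none lies in the chromosome 13 interval.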

How the data were processed

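RNA of 1 gemcitabine-resistant and 1 wild type KPC2 culture was sequenced. HISAT2, StringTie and GRCm38 are named, without roles or versions, per the submitters' processing notes. The authors deposited 1 value per gene and library. Per the file headers these values have no named unit. The authors' values were taken as FPKM, since low values of genes with 1 transcript fell on fragment steps, to within 0.1 of whole, for 94.3% of values in the resistant and 93.9% in the wild type library. Each gene also has the authors' log2 fold change, a test statistic (a score), a p-value and its q-value, per the file headers. The test of 1 library per side is quoted as theirs.

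Genes at 1 FPKM or more in a library were measured, and 13 genes that the deposited table marks as failed or too deep were left out. Differences were log2 ratios of resistant over wild type with 1 FPKM added to both, with no test. Clusters joined Zfp genes with starts within 500 kb. Protein classes came from patterns in translated GENCODE M21 coding sequences, on GRCm38: KRAB, SCAN, CCCH and C2H2 (at least 3 fingers). Promoters came from RefSeq (GRCm38.p6). Copies at 90% identity over 500 bases were found with BLAST 2.17.0+. Fragments were estimated after 160 (resistant) or 165 (wild type) bases were taken off each length, at 0.0439 and 0.0423 FPKM per fragment and kilobase.

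Members, lists, classes and the chromosome 13 interval were chosen with earlier results of these data known. The genes named are cluster members at least 2-fold different and all members of the chromosome 13 interval, the 12 highest and 12 lowest ratios with a value of 2 FPKM or more, the 8 highest means, members of known role, 3 genes on each side of the level, and those the deposited table called. Any other gene is said to be named after its values were seen, or belongs to a fixed list. Python 3.11.15, numpy 2.4.6, pandas 2.3.3, scipy 1.17.1, matplotlib 3.10.9 and Biopython 1.88 were used. The steps were tested on simulated data. Alternatives were other pseudocounts, level filters, scalings, fold lines and cluster distances, protein-coding genes only, and leaving out near-identical copies or shared loci.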

Additional observations from a re-analysis of the deposited data

How the results depend on the processing

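Of 224 alternative values, 5 reversed in sign, 22 moved by more than 1.5 times (0.58 on the log2 scale for a median) and 197 moved by less, which for a median near 0 can still be most of its size. The members' median log2 ratio was below 0 under every alternative, from -0.92 to -0.27. The KRAB median ran from -1.23 to -0.29 and that of C2H2 genes without KRAB from -0.60 to -0.24, both also below 0 throughout. The gap between these classes depended on the setting. At a pseudocount of 0.1 the medians were -1.23 and -0.60, at a pseudocount of 5 they were -0.29 and -0.24. With at least 5 FPKM in 1 library they were -0.38 and -0.34. Counts moved with the pseudocount. At 0.1, 12 of 274 members were at least 2-fold higher and 126 lower, beside 10.8% and 12.7% of all measured genes. At 5 they were 2 and 4, beside 3.52% and 2.45%. The members' share at least 2-fold lower was thus below that of all measured genes at a pseudocount of 5. By construction the fold line moved them too, to 2 and 0 at 4-fold, beside 1.81% and 1.06% of all measured genes. At 1.5-fold they were 14 and 145, beside 18.4% and 19.8%. With at least 5 FPKM in 1 library, 4 of 114 members were higher and 25 lower, beside 7.77% and 7.86% of all genes at that level. Without near-identical copies 3 of 217 members were higher and 45 lower, beside 7.91% and 8.26% of the genes kept. Without shared loci 2 of 154 members were higher and 34 lower, beside 7.66% and 8.39%.

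The chromosome 13 cluster median was -1.98 at a pseudocount of 0.1, -0.33 at 5 and -1.90 for the 1 member left at 5 FPKM. The chromosome 4 cluster median was 1.75 at a pseudocount of 0.1, 0.27 at 5, 3.10 for the 3 members at 5 FPKM, 0.16 over all measured genes of the interval, -0.97 without near-identical copies (1 gene left) and -0.06 without shared loci (4 left), so its direction rests on genes with near-identical copies or shared loci. At 5 FPKM the first chromosome 17 cluster stood at -0.23 over 7 members, and the chromosome 7 clusters at 24.1 Mb and 27.7 Mb reversed to 0.31 and 0.84, with 1 gene left in each. The imprinted genes reversed to 0.14 at 5 FPKM (6 genes) and stood at -2.46 without shared loci (1 gene). Beyond having fewer genes, the cause was not tested. Rescaling to the same upper quartile shifted the median of all measured genes to -0.06. Subtracting trends with level, GC content and length, the split by level, and leaving opposite-strand genes out of the Zbtb count were chosen after seeing the data.

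No paired analysis was possible because each group had 1 library, and for the same reason no library was left out. On a transcript of 2000 bases, 1 FPKM rests on about 41.9 fragments in the resistant and 43.3 in the wild type library. Small differences between values near that level therefore have wide counting error. No source used here gives how fragments were shared among overlapping or near-identical genes.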
